A study of Rattus norvegicus with 24 samples.

Results

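Chemokines, interleukins and their receptors were described in rat liver as 148 array probes of 132 genes, of the 19958 gene symbols that the array measured. The members were the probes whose gene symbol follows the naming of CC, CXC and CX3C chemokines, their receptors or interleukins, with Tnf and Ifng added. Of 156 probes with such a symbol, 8 probes of 6 genes were left out, since their annotation describes something else than a chemokine, an interleukin or a receptor. All rats were male Wistar rats whose semi-synthetic diet held 1% cholesterol for 42 days. The Ch group received only this diet, the ChGENE group received it with 5% lyophilised Geneva kiwifruit (Actinidia arguta), and the ChHAYW group with 5% lyophilised Hayward kiwifruit (Actinidia deliciosa). Liver RNA of each group was hybridised to 8 one-colour arrays, there was no group without cholesterol, and no source used here gives the age of the rats.

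Chemokines are small secreted proteins that steer the migration of leukocytes through receptors with several membrane spans. Interleukins carry signals between immune and tissue cells, mostly through receptors that engage JAK and STAT proteins or, in the interleukin 1 family, MyD88 and NF-kB. In liver, Kupffer cells (the resident macrophages), sinusoidal endothelial cells, stellate cells and hepatocytes all produce or receive such signals, and interleukin 6 and interleukin 1 drive acute phase synthesis in hepatocytes. Whole liver was measured, so more cells of a type and more RNA per cell cannot be told apart.

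A level is given here as the log2 intensity of a probe minus the 75th percentile of its array, so that 0 is the 75th percentile and each unit is a doubling. Differences between diets are taken within a probe. Levels of different probes are not read as amounts of RNA relative to each other. They are combined only to describe brightness and in sums over marker lists. Ch arrays were the dimmest, with a median 75th percentile of 421 against 675 on ChGENE and 731 on ChHAYW arrays (linear intensity), and each diet was hybridised on a slide of its own, so that slide and diet cannot be told apart. Hepatocyte markers, among them Alb, were above background on all 24 arrays for 10 of 10 genes.

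The 8 arrays of a diet were labelled as biological replicates, but in each diet 1 pair of arrays was nearly the same. Ch 1 and Ch 2, ChGENE 4 and ChGENE 5, and ChHAYW 6 and ChHAYW 7 differed by more than 1 log2 unit at 0 to 4 of 7542 bright probes, against 77 to 1887 probes (median 343) in the other 81 pairs of the same diet. The spread between the arrays of these 3 pairs was 1.56 to 1.83 times the spread between spots of 1 array, and at least 3.10 times in all other same-diet pairs. No arrays held identical values. Each of the 3 pairs was averaged and counted as 1 sample, named Ch 1+2, ChGENE 4+5 and ChHAYW 6+7, which leaves 7 samples per diet. The results with all arrays counted separately are given beside the main counts. Nothing else in the labels says how the samples were taken, so p-values measure the spread between these samples.

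Of the 132 genes, 48 had a probe above background on all 24 arrays, 63 on some of them and 21 on none. By probe, 36.5% of the members were above background everywhere, against 46.2% of all 30367 probes. CC chemokines present on all arrays were Ccl5, Ccl6, Ccl9, Ccl12, Ccl19, Ccl21, Ccl22, Ccl24 and Ccl27, and the CXC and CX3C chemokines were Cxcl1, Cxcl9, Cxcl10, Cxcl11, Cxcl12, Cxcl14, Cxcl16 and Cx3cl1. Among the chemokine receptors, Ccr9, Ccrl2 and Cx3cr1 reached this, whereas Ccr4, Ccr8 and Cxcr5 were above background on no array. The interleukin 1 family was represented by the ligands Il1a, Il1b, Il1rn, Il18, Il33, Il36b and Il36rn and the receptors Il1r1 and Il18r1. The interleukin 6 receptor chains Il6r and Il6st were present on all arrays, whereas their ligand Il6 was not well above background on any. Ifng, the T and NK cell interferon, was likewise above background on no array, while Tnf, the macrophage cytokine, was above it on all 24.

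The number of member genes above background on an array was 51 to 67 (median 61.5) with Ch, 60 to 84 (median 72) with ChGENE and 61 to 77 (median 68) with ChHAYW. Dim arrays tended to have fewer member genes, with exceptions. The dimmest array, Ch 4, had a 75th percentile of 188 and 51 member genes, and the brightest, ChHAYW 7, had 1049 and 77. The most member genes, 84, were on ChGENE 4 at 743, ChHAYW 8 had 65 at 756, and ChHAYW 3 had 67 at 408.5. The part of brightness in the difference between diets was not tested.

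**Figure D1:**
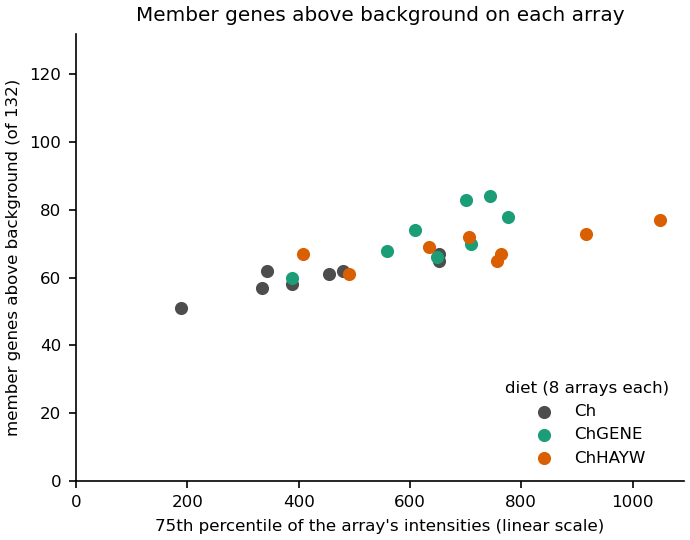
Member genes above background (of 132) against the 75th percentile of the intensities, 1 point per array and 8 arrays per diet. Ch arrays lie between 51 and 67 genes and mostly at lower intensities than the ChGENE (60 to 84) and ChHAYW (61 to 77) arrays.

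The promoters of 3 members on which the results turn are shown first: Cxcl12, the chemokine with the smallest p in ChGENE against Ch, and, among members above background on all arrays, Cxcl1 with the widest spread in ChGENE and Cxcl10 with the widest in Ch and ChHAYW. Each sequence is the 250 bases before the annotated start, from RefSeq on build GRCr8, 5′ to 3′ on the strand of the gene. Capitals mark matches on either strand to a kappaB-like motif (GGG, any 3 bases, TTCC), a loose form of the site bound by NF-kB, or to an interferon response-like motif (GAAA, any 2 bases, GAAA). Matches on opposite strands that overlap run together.
Cxcl1, chr14:17479322-17479571, minus strand: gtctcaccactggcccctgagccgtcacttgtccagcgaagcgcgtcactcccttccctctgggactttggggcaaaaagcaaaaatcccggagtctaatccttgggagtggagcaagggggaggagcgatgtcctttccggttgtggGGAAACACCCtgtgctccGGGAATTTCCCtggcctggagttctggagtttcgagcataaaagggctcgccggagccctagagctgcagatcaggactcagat
Cxcl10, chr14:15988816-15989065, plus strand: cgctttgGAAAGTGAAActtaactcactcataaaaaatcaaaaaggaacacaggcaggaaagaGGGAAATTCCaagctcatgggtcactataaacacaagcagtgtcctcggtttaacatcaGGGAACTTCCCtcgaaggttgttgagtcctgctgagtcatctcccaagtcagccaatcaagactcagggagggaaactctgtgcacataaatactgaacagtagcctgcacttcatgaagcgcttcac
Cxcl12, chr4:152060531-152060780, plus strand: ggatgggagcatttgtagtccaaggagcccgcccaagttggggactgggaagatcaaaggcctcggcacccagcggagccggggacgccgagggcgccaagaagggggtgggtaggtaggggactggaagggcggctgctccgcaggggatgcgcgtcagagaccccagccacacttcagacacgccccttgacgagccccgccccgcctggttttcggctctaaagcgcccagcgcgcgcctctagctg
The kappaB-like motif was found in the windows of Cxcl1 and Cxcl10, the interferon response-like motif in that of Cxcl10, and neither in that of Cxcl12. Of 102 member genes with a window, 17 (16.7%) held the first, against 4.53% of all 33469 windows, and 9 (8.8%) held the second, against 3.41%. A match describes letters and not binding.

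No member differed between diets by the test across all probes. Calls needed a fold of at least 1.3 and a p under 0.05 from limma after Benjamini-Hochberg adjustment over 30367 probes. By this rule 0 of 148 member probes passed in ChGENE against Ch, where 0% of all probes passed. The same held for ChHAYW against Ch (0 of 148, with 0% of all probes) and for ChGENE against ChHAYW (0 of 148, with 0% of all probes). The smallest adjusted p of a member above background on all arrays was 0.0951, 0.222 and 0.743 in these comparisons. The count for ChGENE against Ch depended on 1 sample and on the scaling: without Ch 3, 29 member probes passed beside 15.6% of all probes, and with arrays scaled to their median, 22 passed beside 11.2%. Of these, 21 and 17 were above background on no array, Cxcl12 passed in both, and Il6r passed with median scaling. With all arrays as separate samples 0 members passed again, as with the methods' t-test after adjustment, and 97, 0 and 2 of all probes did (0.319%, 0% and 0.00659%). The comparisons with Ch share the Ch samples, so they are set side by side and not counted as repeats of each other.

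At an unadjusted p under 0.05 with the same fold, 39 member probes differed in ChGENE against Ch, where 23.1% of all probes did. Of these, 7 were higher (Ccl4, Cxcl12 by 2 probes, Il10, Il15, Il1a and Il27), or 4.73% of the members against 2.42% of all probes, and 32 were lower, or 21.6% against 20.6%. In ChHAYW against Ch, 30 member probes differed, where 18% of all probes did, with 3 higher (Ccr1l1, Il17c and Il1a; 2.07% of all probes were higher) and 27 lower (16% of all probes were lower). In ChGENE against ChHAYW, 7 differed, with 4.07% of all probes: Cxcl12 by 2 probes, Il13ra1, Il1r1 and Il4r were higher with ChGENE, and Ccr1l1 and Il36g (above background on 4 of 24 arrays) lower. Over all probes 1.96% were higher and 2.12% lower there. The shares of members that were lower lay near those of all probes.

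Groups that did not overlap were rare. In ChGENE against Ch, 3 member probes (Cxcl5 and both probes of Il1rl1) were lower in every ChGENE sample than in every Ch sample, where 0.823% of all probes were, and 0 were higher, where 0.0724% were. None of the 3 was above background on any kiwifruit array. In ChHAYW against Ch there were 0 in either direction (0.0329% of all probes higher and 0.0626% lower), and likewise in ChGENE against ChHAYW (0.0494% and 0.0724%).

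Most of the lower values came from probes that were not above background. Of the 26 member probes above background on no array, 22 were lower with ChGENE than with Ch at that unadjusted threshold, beside 66.8% of the 5071 such probes on the array, and 14 with ChHAYW, beside 52.9%. Their median log2 difference was -0.74 and -0.63, and that of all such probes was -0.70 and -0.63. These probes have only a bound in each diet, and Ch arrays were also the dimmest. The part of brightness in these values was not tested. Among the 54 member probes above background on all 24 arrays, the median difference was 0.08 for ChGENE minus Ch (all 14040 such probes -0.04), -0.04 for ChHAYW minus Ch (-0.04) and 0.13 for ChGENE minus ChHAYW (0.00). Of these 54, 3 were higher and 2 lower in ChGENE against Ch at the unadjusted threshold (2.44% and 5.98% of all such probes), 2 were higher and 3 lower in ChHAYW against Ch (1.87% and 5.49%), and 5 were higher and 0 lower in ChGENE against ChHAYW (2.19% and 2.18%).

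**Figure D2:**
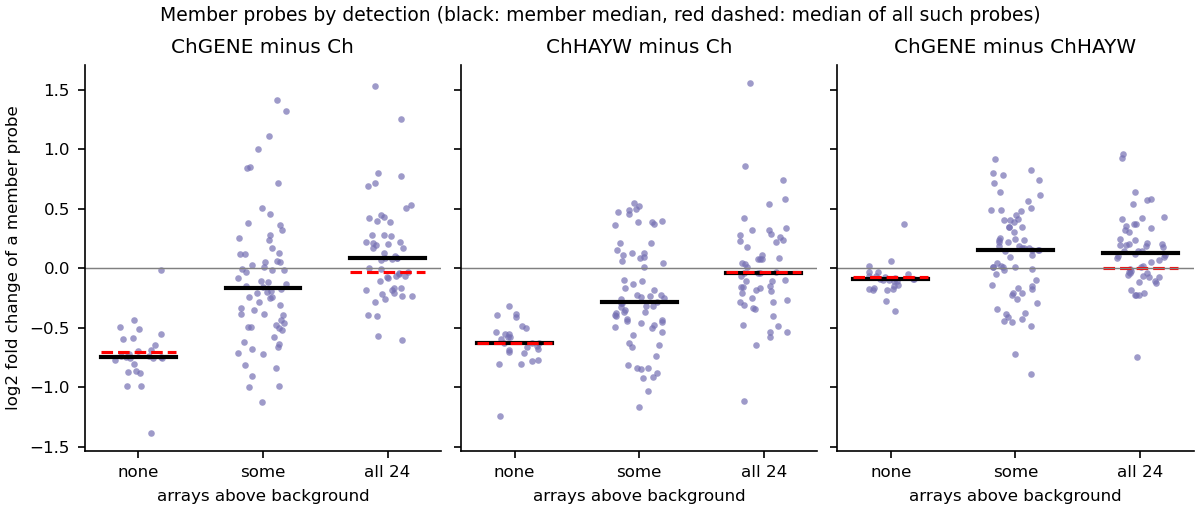
Log2 fold changes of the 148 member probes in the 3 comparisons, split by whether a probe was above background on none, some or all 24 arrays. Black lines are medians of the members and red dashed lines medians of all probes of the class on the array (not drawn for the class some). Members never above background lie below 0 with a median of -0.74 (ChGENE minus Ch) and -0.63 (ChHAYW minus Ch), while those above background everywhere lie around 0.

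Among the members with a probe above background on all 8 arrays of a diet, Cxcl12 had the smallest p of the comparison of ChGENE with Ch. Cxcl12 is the chemokine of stromal, endothelial and stellate cells that retains leukocytes and progenitors through Cxcr4. Its first probe (rn4, chr4:153510285-153510344) ranged from 1.35 to 2.61 with Ch (median 1.84), from 2.35 to 3.35 with ChGENE (median 2.55) and from 1.51 to 2.87 with ChHAYW (median 2.18). All 7 ChGENE samples lay above 6 of the 7 Ch samples, and only Ch 4, the dimmest array, reached into their range. The log2 difference from Ch was 0.78 (SE 0.20, limma, unadjusted p = 0.00151, adjusted p = 0.0951) with ChGENE and 0.24 (SE 0.22, adjusted p = 0.544) with ChHAYW. The second probe (chr4:153516205-153516264) ranged from 3.24 to 4.75 (median 4.05), from 3.98 to 5.54 (median 4.73) and from 3.74 to 4.49 (median 4.08), and gave 0.71 (SE 0.25, adjusted p = 0.104) and 0.08 (SE 0.22, adjusted p = 0.853). ChGENE exceeded ChHAYW by 0.54 (SE 0.20) and 0.64 (SE 0.20) by these probes, with adjusted p = 0.875 and 0.743. Cxcl12 kept a positive difference of ChGENE from Ch under the 5 other scalings, from 0.70 to 1.22, and whichever sample was left out, from 0.58 to 0.89. Its receptors Cxcr4 and Cxcr7 (now Ackr3) were dim: Cxcr4 was above background on 16 of 24 arrays and Cxcr7 on 3.

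Il6r, the ligand-binding chain of the interleukin 6 receptor, had lower means with both kiwifruit diets. Its probe (chr2:182078323-182078382) ranged from 1.66 to 2.89 with Ch (median 1.96), from 1.17 to 1.74 with ChGENE (median 1.52) and from 0.96 to 1.87 with ChHAYW (median 1.65). The lowest Ch samples overlapped with the highest samples of both kiwifruit diets. The difference from Ch was -0.61 (SE 0.19, adjusted p = 0.0951) with ChGENE and -0.54 (SE 0.21, adjusted p = 0.222) with ChHAYW. When arrays were scaled to spike-in RNA these became -0.16 and 0.06, so that the ChHAYW value changed sign. Il6st, the signalling chain gp130 shared by that family, gave -0.40 (SE 0.22, adjusted p = 0.271) and -0.19 (SE 0.21, adjusted p = 0.62) at its bright probe. Its other probe was above background on 1 array.

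Il18r1, the binding chain of the interleukin 18 receptor, ranged from -1.30 to -0.25 with Ch (median -0.75), from -2.38 to -0.79 with ChGENE (median -1.19) and from -1.82 to -0.94 with ChHAYW (median -1.26). The differences from Ch were -0.57 (SE 0.25, adjusted p = 0.172) and -0.58 (SE 0.20, adjusted p = 0.222). The lowest ChGENE value was that of ChGENE 4+5, and without this sample the difference was -0.40 (SE 0.21). Under spike-in scaling the values were -0.13 and 0.02, the latter with the opposite sign. The second chain of this receptor, Il18rap, was above background on 1 array by each of its probes.

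Il1a, an alarm cytokine held inside cells, was measured by 2 probes that disagreed. The probe at chr3:116913748-116913807 ranged from -1.74 to -0.28 with Ch (median -0.86), from -1.01 to 1.42 with ChGENE (median -0.25) and from -0.64 to 0.34 with ChHAYW (median -0.10), and differed from Ch by 0.80 (SE 0.35, adjusted p = 0.174) and 0.86 (SE 0.24, adjusted p = 0.222). The probe at chr3:116914826-116914885 gave 0.27 (SE 0.31) and 0.03 (SE 0.32), the latter negative under quantile, cyclic loess and normexp processing. The same sample, ChGENE 4+5, was highest among the ChGENE samples by both probes.

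Il15, which sustains NK and memory T cells, ranged from -4.24 to -2.80 with Ch (median -3.43), from -3.40 to -2.57 with ChGENE (median -2.81) and from -3.90 to -2.41 with ChHAYW (median -2.74). Its differences from Ch of 0.50 (SE 0.21, adjusted p = 0.149) and 0.49 (SE 0.25, adjusted p = 0.292) became -0.10 and -0.07 with normexp background correction. Its receptor chain Il15ra was above background on 1 array.

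**Figure D3:**
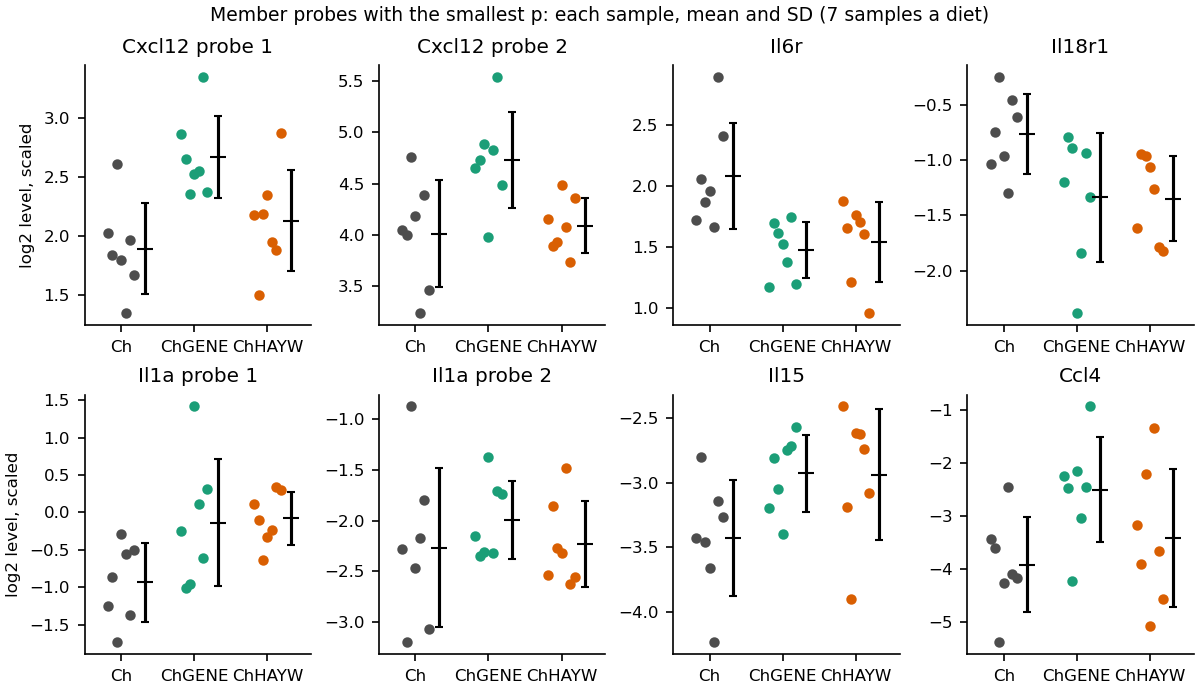
Log2 level of 8 member probes in each of the 7 samples of a diet, with the mean and SD beside the points. Probe 1 of Cxcl12 and of Il1a is the one described first in the text. ChGENE samples of Cxcl12 probe 1 lie from 2.35 to 3.35, above all Ch samples but 1, and Il6r lies lower with both kiwifruit diets but overlaps Ch.

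Among the CC chemokines, Ccl4 and Ccl3, inflammatory chemokines that macrophages and lymphocytes release, had their highest means with ChGENE. Ccl4 ranged from -5.38 to -2.45 with Ch (median -4.10), from -4.22 to -0.94 with ChGENE (median -2.45) and from -5.07 to -1.34 with ChHAYW (median -3.65). The differences from Ch were 1.41 (SE 0.46, adjusted p = 0.0951) and 0.50 (SE 0.54, adjusted p = 0.613), and with normexp background correction they were 0.36 and -0.10. Ccl4 was above background on 6 of 8 Ch arrays and on all arrays of the other diets. Ccl3 gave 1.11 (SE 0.56, adjusted p = 0.236) and 0.39 (SE 0.56). Ccl2, the monocyte attractant, was above background on 14 of 24 arrays and gave 1.32 (SE 0.67) and 0.52 (SE 0.56).

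For the bright CC chemokines no difference from Ch reached 2 SEs. Ccl5 gave 0.10 (SE 0.37) for ChGENE and 0.22 (SE 0.35) for ChHAYW minus Ch, Ccl9 gave -0.21 (SE 0.25) and -0.16 (SE 0.24), and Ccl24, an eotaxin of Kupffer cells, gave -0.22 (SE 0.24) and -0.33 (SE 0.23). Both probes of Ccl6 had higher means with kiwifruit, by 0.43 and 0.50 with ChGENE and by 0.29 and 0.54 with ChHAYW, with SEs of 0.40, 0.45, 0.39 and 0.40. Ccl27 gave -0.05 (SE 0.27) and -0.04 (SE 0.23). Ccl19 and Ccl21, the ligands of Ccr7, gave 0.28 (SE 0.44) and 0.69 (SE 0.63) with ChGENE, and -0.15 (SE 0.25) and 0.12 (SE 0.40) without ChGENE 4+5.

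Of the remaining CXC and CX3C chemokines, Cxcl10, the interferon-induced ligand of Cxcr3, had the largest mean difference. It ranged from -3.84 to -0.65 with Ch (median -2.11), from -2.54 to 2.67 with ChGENE (median -0.75) and from -3.00 to 2.00 with ChHAYW (median -1.28). The differences of 1.53 (SE 0.73, adjusted p = 0.215) and 1.56 (SE 0.80, adjusted p = 0.299) did not pass, and without ChGENE 8 the first was 0.95 (SE 0.56). Leaving out ChHAYW 3 alone or ChHAYW 5 alone gave 1.1 (SE 0.74) for the second in each case. Cxcl9 gave 0.45 (SE 0.56) and 0.26 (SE 0.63), with 0.07 (SE 0.49) for the first without ChGENE 8 and -0.18 (SE 0.54) for the second without ChHAYW 3, and Cxcl11, the third ligand of Cxcr3, 0.22 (SE 0.20) and 0.08 (SE 0.23). Cxcl14 gave 0.08 (SE 0.30) and -0.34 (SE 0.24), Cxcl16 0.42 (SE 0.33) and 0.28 (SE 0.34), and Cx3cl1 0.28 (SE 0.21) and 0.07 (SE 0.23). Cxcl13 and Cxcl2 were above background on 12 and 6 of 24 arrays.

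No chemokine receptor passed the test across all probes. Values of dim receptors went both ways and are not read as folds. For ChGENE and ChHAYW minus Ch, Cxcr1 (above background on 3 of 24 arrays) gave -0.84 and -0.84. Ccr1 gave -0.46 and -0.65, and Cxcr3 0.13 and 0.38. Cx3cr1, the fractalkine receptor of monocytes and macrophages, gave -0.23 (SE 0.33) and -0.29 (SE 0.33) for ChGENE and ChHAYW minus Ch. Ccr1l1 was above background on 8 of 8 ChHAYW arrays, 4 ChGENE arrays and 2 Ch arrays. Its difference between ChHAYW and Ch was 0.46 (SE 0.21, adjusted p = 0.253), mostly against Ch arrays that were not above background. With normexp background correction this difference was -0.32. Ccr6 exceeded ChHAYW by 0.56 (SE 0.27, adjusted p = 0.921) with ChGENE. Ccr1, Ccr2, Ccr7, Cxcr2, Cxcr3 and Cxcr6 were above background on 2, 4, 12, 3, 13 and 3 of 24 arrays.

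In the interleukin 1 family, Il1r1, the signalling receptor of Il1a and Il1b, was lowest with ChHAYW. It ranged from -1.81 to 0.96 with Ch (median -1.57), from -2.22 to 0.24 with ChGENE (median -1.55) and from -3.54 to -1.16 with ChHAYW (median -2.26). ChHAYW minus Ch was -1.12 (SE 0.47, adjusted p = 0.227) and ChGENE minus ChHAYW was 0.96 (SE 0.41, adjusted p = 0.917). Apart from Il1a, described above, the ligand probes above background on all arrays gave differences from Ch of less than 2 SEs: Il1b 0.53 (SE 0.44) and 0.11 (SE 0.33), Il18 0.40 (SE 0.37) and 0.58 (SE 0.30), and Il33 -0.03 (SE 0.45) and 0.08 (SE 0.39) for ChGENE and ChHAYW minus Ch. Il1rn, the receptor antagonist, gave -0.23 (SE 0.41) and -0.54 (SE 0.33). Il1rl1, the receptor of Il33, was above background on 1 Ch array by 1 probe and never by the other, so neither probe gives a fold between the diets.

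Among the remaining interleukins and receptors, Il17c, an epithelial member of the interleukin 17 family, had a higher mean with ChHAYW than with Ch by 0.74 (SE 0.34, adjusted p = 0.261), and ChGENE minus ChHAYW was -0.75 (SE 0.36), and -0.44 (SE 0.25) without ChGENE 4+5. Its range was -2.46 to -0.01 with Ch, -2.76 to 0.22 with ChGENE and -1.16 to 0.32 with ChHAYW, and the lowest Ch and ChGENE samples were Ch 4 and ChGENE 4+5. Il17ra, the shared receptor chain of that family, exceeded ChHAYW by 0.33 (SE 0.15, adjusted p = 0.918) with ChGENE. Il4r gave 0.42 (SE 0.16) at 1 probe and -0.23 (SE 0.41) at the other in the same comparison, and Il13ra1 0.58 (SE 0.26) and 0.07 (SE 0.26). Il13, the ligand of that receptor, gave -0.39 (SE 0.19) for ChGENE minus ChHAYW, Il3ra gave 0.32 (SE 0.16) and 0.20 (SE 0.20) at its probes in that comparison, and Il17re gave -0.46 (SE 0.21) for ChHAYW minus Ch. Il2rg, the common gamma chain, gave -0.18 (SE 0.20) and -0.06 (SE 0.20) against Ch at its bright probe, and Il10rb 0.13 (SE 0.18) and 0.04 (SE 0.15). Il7r, the interleukin 7 receptor of T cells, gave 1.00 (SE 0.49, adjusted p = 0.225) and 0.21 (SE 0.54) at its brighter probe. Il27 was above background on 5 ChGENE arrays, 2 ChHAYW arrays and no Ch array. With each Ch array raised to its lowest level above background, the ChGENE mean was 1.28-fold that of Ch. The ChGENE arrays not above background were left as measured, so this is not a strict bound. The limma fit, on values as measured in both diets, gave an adjusted p of 0.0951. Il10, Il10ra and the 2 probes of Il1rap were above background on 8, 2, 4 and 4 of 24 arrays.

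Tnf ranged from -4.02 to -2.39 with Ch (median -3.31), from -4.14 to 1.39 with ChGENE (median -2.32) and from -4.11 to -0.20 with ChHAYW (median -3.76). The mean exceeded Ch by 1.25 (SE 0.69, adjusted p = 0.285) with ChGENE and by 0.33 (SE 0.52) with ChHAYW. Without ChGENE 4+5 the first difference was 0.68 (SE 0.51), and without ChHAYW 5 the second was -0.13 (SE 0.34). With normexp background correction the differences were 0.68 and -0.01. Il34, a ligand of the macrophage growth factor receptor Csf1r, and Il16, a T cell attractant, gave 0.08 (SE 0.39) and 0.07 (SE 0.14) with ChGENE. For Il34, ChGENE 4+5 was at 2.59 and the other ChGENE samples from 0.13 to 0.69. Its ChHAYW minus Ch difference was -0.49, or 0.11 with spike-in scaling, and ChGENE minus ChHAYW was 0.57.

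Samples of the same diet differed widely in these genes. Over the 54 member probes above background on all arrays, the median SD among the 7 samples of a diet was 0.53 log2 units with Ch, 0.58 with ChGENE and 0.46 with ChHAYW, against 0.35, 0.28 and 0.27 over all 14040 such probes. The members were dimmer, with a median level of -0.54 against 0.25, and the part of this in the spread was not tested. Cxcl1 had the largest SD of all 14040 probes in ChGENE (2.63), and Cxcl10 ranked 5 of 14040 in ChHAYW (1.97). Without ChGENE 4+5 the median SD of the members in ChGENE was 0.40, against 0.26 for all probes, and that of Cxcl1 was 1.27.

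**Figure D4:**
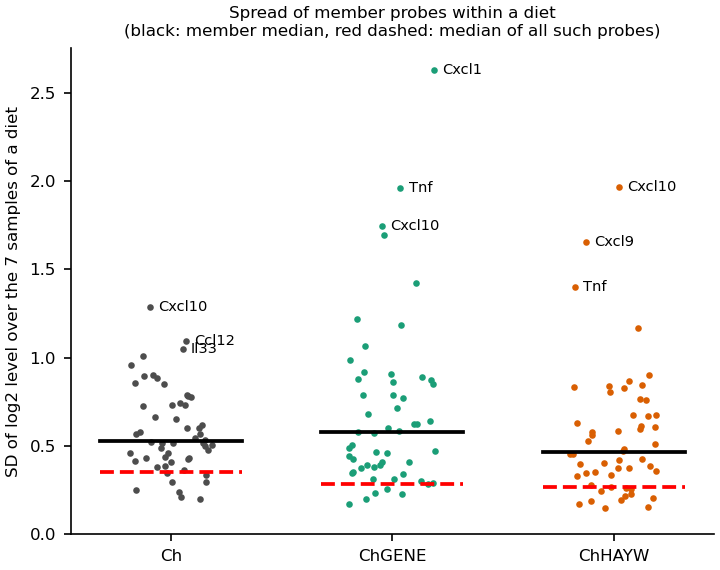
SD of the log2 level over the 7 samples of a diet for the 54 member probes above background on all 24 arrays. Black lines are the medians of the members (0.53, 0.58 and 0.46) and red dashed lines those of all 14040 such probes (0.35, 0.28 and 0.27), and Cxcl1 stands highest in ChGENE at 2.63.

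ChGENE 4+5 stood apart from the other ChGENE samples. It was the highest ChGENE sample at 22 of the 54 member probes (40.7%), against 14.3% of all 14040 probes. Such an excess was not particular to it. ChGENE 8 was highest at 20.4% of the members against 6.64% of all probes. In their own diets ChHAYW 5 had 35.2% against 15.8% and Ch 6 had 25.9% against 11.9%. Other samples went the other way, as ChGENE 1 did (13% against 22.5%). Cxcl1, a neutrophil attractant, was at 4.19 in ChGENE 4+5 and from -3.69 to 0.16 in the other 6 ChGENE samples. The highest value of the other diets was 0.94. Il1r2, the decoy receptor of interleukin 1, was at 0.51 against -7.02 to -5.93, and was above background on 2 ChGENE arrays and on no array of the other diets. Cxcr2, the receptor of Cxcl1 on neutrophils, was at -2.83 against -7.02 to -5.67. Tnf was at 1.39, Il1rn at 3.75, Ccl19 at 1.16, Ccl21 at 1.88 and Il34 at 2.59, each the highest of the 21 samples.

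Some neutrophil and monocyte markers moved with this sample, and others did not. S100a8, a protein abundant in neutrophils and monocytes, was at 3.98 in ChGENE 4+5 and from -4.15 to -1.58 in the 20 other samples. S100a9 was at 4.11 against -3.46 to -0.83. Over the 10 genes of the neutrophil and monocyte list the summed linear level was 44.4 there, against 7.2 to 11 in the other ChGENE samples, 7.56 to 15.4 with Ch and 5.65 to 16.2 with ChHAYW, and 4 of the 10 passed the background mark on every array. The sum of the 8 genes other than S100a8 and S100a9 was 11.4, inside the range of the other samples (5.38 to 15.6). Csf3r (-2.65) and Fcn1 (1.56) were also highest in ChGENE 4+5, whereas Mpo (-4.54), Elane (-6.90), Ngp (-5.24), Ly6c (-2.38), Itgam (0.16) and Cd14 (2.78) lay within the range of the other samples. Of the defining granule genes, Elane was above background on 1 of 24 arrays and Mpo on 9. The macrophage list (10 of 12 genes above background on all arrays) summed to 237 in this sample, the highest of the 21, and 9 of its 12 genes peaked there. The part of these cells in the result was not tested. Il17c (-2.76) and Il18r1 (-2.38) were the lowest of the 21 samples in ChGENE 4+5.

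Without ChGENE 4+5, the difference between ChGENE and Ch was -1.18 (SE 0.54, adjusted p = 0.201) for Cxcl1, which was -0.28 (SE 0.94) with it, and -0.60 (SE 0.27, adjusted p = 0.196) for Il1rn, which was -0.23 with it. Cxcl12 gave 0.80 (SE 0.21) and 0.84 (SE 0.25) without it, and Il6r -0.61 (SE 0.21).

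The ligands of Cxcr3 and several CC chemokines were high in other samples. ChGENE 8 was the highest ChGENE sample for Cxcl9 (1.06), Cxcl10 (2.67), Cxcl11 (1.12), Ccl3 (0.67), Ccl4 (-0.94) and Ccl5 (3.08). ChHAYW 3 was the highest ChHAYW sample for Cxcl9 (1.25), Cxcl11 (1.22) and Ccl5 (3.44), and ChHAYW 5 for Cxcl10 (2.00), Ccl3 (0.32), Ccl4 (-1.34), Il1b (1.07) and Tnf (-0.20). With Ch, sample 6 was highest for Cxcl10 (-0.65), Ccl3 (-1.44), Ccl4 (-2.45), Ccl5 (2.61) and Tnf (-2.39). Leukocyte markers moved with these samples. The T and NK cell list, with 3 of 14 genes above background on all arrays, summed to 4.36 in ChGENE 8, 4.08 in ChHAYW 3 and 3.46 in ChHAYW 5, and to 1.25 to 3.00 in the 18 others, where Ch 6 was the highest Ch sample at 2.56. The macrophage list summed to 187.5, 154.6, 178.2 and 138.8 in ChGENE 8, ChHAYW 3, ChHAYW 5 and Ch 6, and to 53.7 to 115.6 in the samples other than these and ChGENE 4+5. By gene these samples were among the 5 highest of 21 at 11, 7, 10 and 11 of its 12 genes. Vsig4 in ChGENE 8 (-1.20) and Cd163 (1.71) and Marco (-0.99) in ChHAYW 3 were among the exceptions. The B and plasma cell list (0 of 7 genes above background on all arrays, Cr2 and Ms4a1 on none) summed to 0.52 and 0.56 in ChGENE 8 and ChHAYW 5, and to at most 0.47 in the 19 others. Their part in these levels was not tested.

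**Figure D5:**
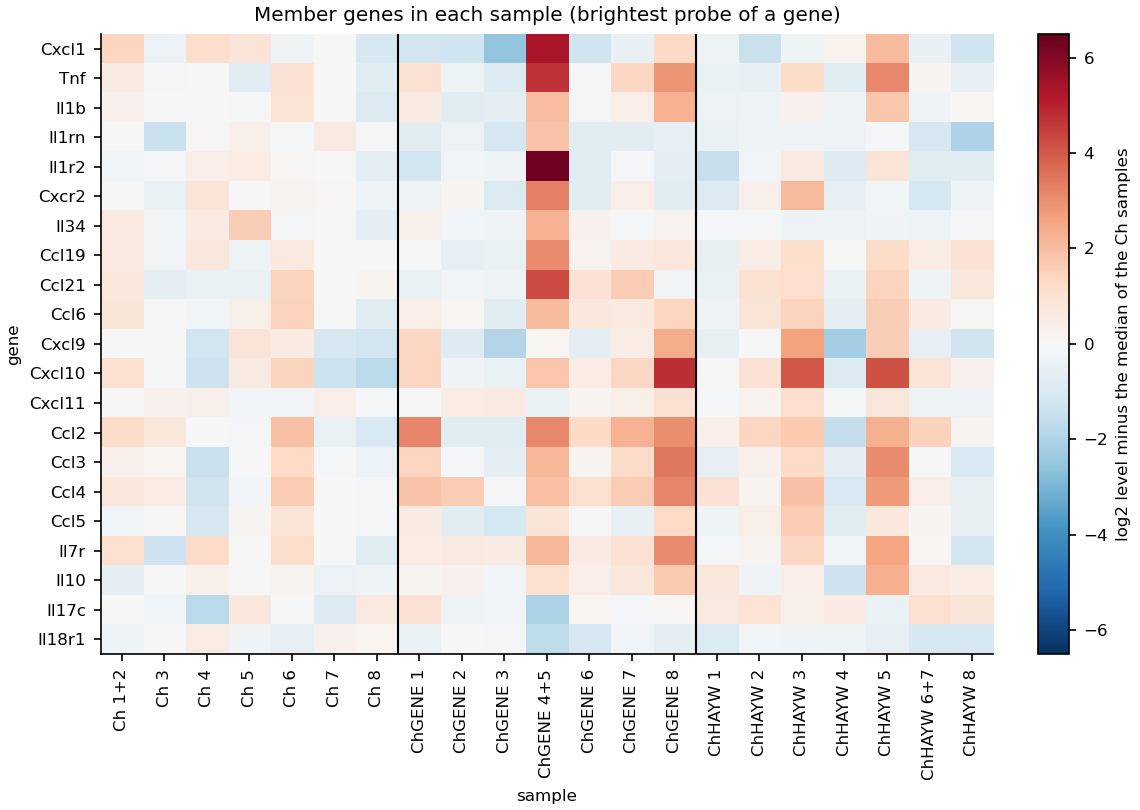
Log2 level minus the median of the Ch samples for 21 member genes (brightest probe of each, genes chosen after their values were seen) in the 21 samples. ChGENE 4+5 is highest for Cxcl1 (5.31), Tnf (4.69) and Il1r2 (6.31, where no Ch array was above background). ChGENE 8, ChHAYW 3 and ChHAYW 5 are highest for Cxcl9 and Cxcl10.

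Other cell types differed between samples as well. Sinusoidal endothelial markers (6 of 8 genes above background on all arrays) summed to 24.5 to 45.8 with Ch, 29.6 to 46.2 with ChGENE and 28.2 to 39.2 with ChHAYW, and stellate cell markers (8 of 9) to 28.9 to 86.4, 33.7 to 69.5 and 31.5 to 82.8. ChGENE 4+5 had the highest endothelial sum of the 21 samples and ChGENE 8 the highest stellate sum of its diet. Bile duct markers (2 of 6) summed to at most 4.78, hepatocyte markers (10 of 10) to 1811 to 3470 and red blood cell markers (4 of 5) to 213 to 751.

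Genes around the cytokines were read from lists that hold no member. Of 46 probes of 41 genes of receptor signalling (TNF receptors, MyD88, NF-kB, JAK, STAT and SOCS genes), 0 passed the test in any comparison. At an unadjusted p under 0.05 with a fold of at least 1.3, 3 were higher and 1 lower in ChGENE against Ch (6.52% and 2.17%, beside 2.42% and 20.6% of all probes and 2.44% and 5.98% of those above background everywhere), and 4 higher and 5 lower in ChHAYW against Ch (8.7% and 10.9%, beside 2.07% and 16%, and 1.87% and 5.49%). Of the 46, 35 were above background on all arrays. Lifr, a receptor that pairs with Il6st, gave 0.65 (SE 0.18, adjusted p = 0.0951) with ChGENE, and Nfkbia, the NF-kB inhibitor, gave -0.52 (SE 0.25, adjusted p = 0.205). Stat3, which carries the interleukin 6 signal, gave -0.45 (SE 0.26) with ChGENE and -0.59 (SE 0.21, adjusted p = 0.222) with ChHAYW, and the TNF receptors gave -0.43 (SE 0.18) for Tnfrsf1a and -0.55 (SE 0.19) and -0.22 (SE 0.19) for the probes of Tnfrsf1b with ChHAYW.

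Acute phase genes, which answer to interleukin 6 and interleukin 1 in hepatocytes, had 0 of 24 probes of 19 genes past the test. At the unadjusted threshold 4 (16.7%) were lower and 0 higher in ChGENE against Ch, and 7 (29.2%) lower and 3 (12.5%) higher in ChHAYW against Ch. Over all probes 20.6% and 16% were lower and 2.42% and 2.07% higher, and over probes above background everywhere, as 23 of these 24 were, 5.98% and 5.49% were lower and 2.44% and 1.87% higher. The differences of the list had medians of -0.28 and -0.33, beside -0.16 and -0.16 over all probes. Over all probes above background everywhere the medians were -0.04 and -0.04. Fgb, the fibrinogen beta chain, gave -0.43 (SE 0.16) and -0.47 (SE 0.36) at its probes with ChGENE, and -0.39 (SE 0.18) and -0.80 (SE 0.21) with ChHAYW. Hp, haptoglobin, gave -0.56 (SE 0.22) and -0.64 (SE 0.24). A2m, the alpha-2-macroglobulin of the rat acute phase, gave 0.87 (SE 0.28) and 0.83 (SE 0.28) at its probes with ChHAYW, and 0.92 (SE 0.62) and 0.81 (SE 0.61) with ChGENE. Of 12 probes of 11 inflammasome genes none passed, and Casp1, which cleaves pro-interleukin 1 beta, gave 0.73 (SE 0.44) and 0.73 (SE 0.37). Among 10 probes of 8 chemokine family genes with other names none passed. At the unadjusted threshold 1 (10%) was higher and 2 (20%) lower in ChGENE against Ch. In ChHAYW against Ch, 0 were higher and 2 (20%) lower, beside the shares of all probes given above. Xcl1 gave 0.44 (SE 0.29) and -0.02 (SE 0.28).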

How the data were processed

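The authors extracted the scanner intensities of 24 arrays with Feature Extraction 10.10.1.1 (per the file headers), which detrended them within each array. The deposited intensity values are linear, with no scaling from array to array. The study's methods name a one-colour expression kit, whereas the labels' labelling protocol names a miRNA kit. Probe positions are those of the deposited files, on rn4.

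Outlier spots, as marked by the scanner software, were dropped, the remaining spots were averaged per probe, and log2 values were taken relative to the 75th percentile of the array over 30367 non-control probes. A probe counted as above background where most or an equal part of its kept spots carried the software's mark for a signal well above background. The study's methods name Student's test and GeneSpring; here lmFit and eBayes of limma 3.58.1 (R 4.3.3) were used, with Benjamini-Hochberg adjustment over all probes, an adjusted p under 0.05 and a fold of at least 1.3. The procedure was tested on simulated data.

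Groups follow the labels. The averaging of 3 near-identical array pairs, at a ratio under 2, departs from the planned fit of 8 against 8 arrays and was chosen after the data had been seen. The number of samples limits the precision, as do the spread within a diet and the dimmer Ch arrays. The members, the gene lists and the cell marker lists were chosen with earlier results of these data known. Genes named are members that passed, the 10 with the smallest p in each comparison, a fixed list of main cytokines, members with a sample far from the others, and up to 4 genes of each list. Symbols are those of the files; 132 of 148 member probes matched RefSeq by accession, where Cxcr7 is now Ackr3 and Cxcl5 is Cxcl6. Cxcl and Ccl genes close to each other in sequence may share hybridisation. Alternatives were other scalings and background corrections, filters, tests, blocks, the deposited value table, and leaving out each sample. Some members and some symbols left out are not reported here by name.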

Additional observations from a re-analysis of the deposited data

Results flagged for a closer look

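In 301 groups of 7 samples (a member probe in a diet with at least 1 array above background), 22 held a sample farther from the others than Dixon's critical value allows and above background in that sample. By Dixon's value alone, chance flags about 1 in 20 groups of normally distributed values. That rate leaves out the demand for a level above background, so the count is not set against it.

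In ChGENE 4+5, 8 levels stood apart from the 6 other samples of the diet: Il1r2 at 0.51, Cxcr2 at -2.83, Ccl11 at -4.61, Ccl19 at 1.16, Il1rn at 3.75, Il34 at 2.59, Il13ra1 at 2.05 by the probe at which the diets did not differ at the unadjusted threshold, and Il17c at -2.76, which was low. Il13ra1 also stood apart in ChHAYW 8 (1.36, same probe) and, by its other probe, was low in ChHAYW 6+7 (-1.94).

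In ChGENE 7, 4 dim probes were high: Il17a at -2.63, Cxcr1 at -5.46, Il1rapl2 at -5.30 and the dim probe of Il6st at -4.56. ChGENE 8 was high for Cxcl10 (2.67) and Il12rb1 (-3.63).

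Among ChHAYW samples, sample 5 was high for Il1b (1.07) and Cxcr7 (-4.60), and sample 3 for Il10rb (0.90) and Il17re (-3.51). Among Ch samples, sample 6 was high for Cxcr3 (-3.56) and sample 3 low for Il1rn (0.44). What these samples share beyond the markers given above was not tested.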

How the results depend on the processing

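Of 15 alternative settings and 14 fits that left out 1 sample each, 0 members passed in ChHAYW against Ch and in ChGENE against ChHAYW throughout. In ChGENE against Ch, 22 member probes passed with median scaling (3409 of all probes, 11.2%), 17 of them above background on no array, and 1 with arrayWeights (Cxcl12, of 170 probes). Leaving out 1 sample gave 0 to 29 member probes there (0 to 4745 of all), with the 29 without Ch 3, 21 of them above background on no array; Ch 3 thus decided the count. Over all probes, ChGENE against Ch gave 4 with quantile normalization, 10 with cyclic loess, 2 with only probes above background and 2 with the methods' t-test. It also gave 11 with all 24 arrays in 1 fit and 97 with all arrays separate. A block that split the replicate numbers after 4 gave 25. ChHAYW against Ch gave 1 with cyclic loess and 0 when any 1 sample was left out. ChGENE against ChHAYW gave 1 with spike-in scaling, 3 with trend and robust and 9 with arrayWeights. It gave 2 with all 24 arrays, 2 with the block split after replicate 4 and 2 with all arrays separate. Leaving out 1 sample gave 0 to 2. The causes were not tested.

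Replicate numbers did not pair the samples: same-numbered correlations were -0.20 to 0.21, -0.35 to 0.14 and -0.23 to 0.23, and the replicate block left 4, 0 and 0 probes, 0 of them members. Of 6697 values of named members under the alternatives, 6686 kept their side of the threshold and 11 passed with the same sign, all in ChGENE against Ch. Of 78 named member probes, 27, 21 and 35 changed the sign of their difference when some 1 sample was left out (ChGENE against Ch, ChHAYW against Ch, ChGENE against ChHAYW). The median of all probes was -0.16, -0.16 and -0.03 (log2), and 0.28, 0.44 and -0.19 with spike-in scaling. Counted as positive and significant, the software's looser mark, 98, 108 and 107.5 member genes were present per array (medians of Ch, ChGENE and ChHAYW).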
